A study of Mus musculus with 17 samples.

Results

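Transcripts of the seminal vesicle stood out in the epididymal fat of 2 mice, HGI 9 and HGI 10, out of 17. The genes described here were chosen by their log2 ratios: they are the 393 of 18595 measured genes whose ratio was at least 1 log2 unit higher in HGI 9 and in HGI 10 than in the highest of the other 15 arrays, which is 2.11% of the genes. The same rule gave 169 genes after normexp background correction with loess and 68 in the authors' deposited values. Known secretion genes of the gland are 12 of the 393, and the others are described by class. This rule used the ratios themselves, so the levels in HGI 9 and HGI 10 are a description with no test. All mice were adult male C57BL/6J animals that ate a purified high-fat diet (30 energy% fat) for 13 weeks. The carbohydrate had a high glycemic index in 9 mice (HGI 1 to 7, HGI 9 and HGI 10) and a low one in 8 mice (LGI). The glycemic index ranks carbohydrates by the rise in blood glucose after a meal. The design text names 19 arrays, of which the authors left out 2. Each mouse had an Agilent array of its own, on which its RNA carried the dye Cy5 and a pool of RNA from all mice carried Cy3.

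The seminal vesicles are paired glands that open into the male urethra and lie beside the epididymal fat. Their folded epithelium depends on androgens and secretes much of the seminal fluid, and a coat of smooth muscle expels it. In mice the fluid holds proteins that clot into the copulatory plug, inhibitors of proteases, and proteins that bind to sperm, and the ions and water come through channels and transporters of the same epithelium.

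A value is the log2 ratio of a mouse's Cy5 signal to the pool's Cy3 signal on the same spot, and a margin is the lower of HGI 9 and HGI 10 minus the highest of the other 15 arrays. The pool also held RNA of HGI 9 and HGI 10. In a pool of equal parts of 17 samples, a transcript found in 2 of them alone, at the same amount in both, would have a ratio of 3.09. With 19 samples it would be 3.25. Where the 2 amounts differ, the sample with more of the transcript could exceed these values. Only 3 of the 393 genes exceeded 3.09 in HGI 9, and 3 did in HGI 10. The tissue was sampled in bulk, so more cells of a type and more RNA per cell cannot be told apart.

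The 3 markers of the gland, Svs2, Pate4 and Ceacam10, were all among the 393 genes. Svs2, a structural protein of the copulatory plug, was at 2.50 in HGI 9 and 2.15 in HGI 10. It lay between -4.95 and -4.49 in the other 7 HGI mice (median -4.62) and between -5.13 and -4.29 in the LGI mice (median -4.73). HGI 9 and HGI 10 lay far above all others, while the other HGI and the LGI mice overlapped. Pate4, a small secreted protein that the array calls Svs7, was at 2.49 in HGI 9 and 2.36 in HGI 10, against -6.13 to -5.48 in the other HGI mice (median -5.75) and -6.50 to -5.44 in LGI mice (median -5.73). Ceacam10, a glycoprotein of seminal plasma from the carcinoembryonic antigen family, was at 2.29 in HGI 9 and 2.24 in HGI 10, against -4.99 to -4.60 in the other HGI mice (median -4.69) and -4.79 to -4.44 in LGI mice (median -4.61). The choice of genes fixes this separation, and its margins were 6.44 for Svs2, 7.80 for Pate4 and 6.68 for Ceacam10.

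Of the 13 measured genes on the list of seminal vesicle secretion, 12 met the rule (92.3%, against 2.11% of all genes). The list median was 2.22 in HGI 9 and 2.02 in HGI 10, against -4.95 to -4.50 in the other 15 arrays. Spinkl, a secreted protein related to the Kazal protease inhibitors, was at 2.43 in HGI 9 and 2.18 in HGI 10, against -8.65 to -7.92 in the other HGI mice and -8.72 to -6.22 in LGI mice. On only 1 of the other 15 arrays was its Cy5 signal well above background, so the lower values are near the detection limit. Sva, the seminal vesicle antigen, known to suppress sperm motility, was at 2.59 in HGI 9 and 2.24 in HGI 10, against -5.53 to -4.51 in the other HGI mice and -6.35 to -4.72 in LGI mice. Svs3a had 2.22 in HGI 9 and 2.27 in HGI 10, against -4.92 to -4.49 in the other HGI mice and -4.94 to -4.50 in LGI mice. Svs1, a member of the copper amine oxidase family, had 2.12 in HGI 9 and 1.85 in HGI 10, against -4.02 to -3.69 in the other HGI mice and -4.05 to -3.56 in LGI mice. The rule already keeps the other arrays at least 1 below, and in none of these genes did 1 of them come near HGI 9 or HGI 10. The others were 9530003J23Rik, with a margin of 7.44, and Sval2, with a margin of 2.28. Sval1, a relative of Sva, was the 1 measured list gene that did not meet the rule. It was at 0.28 in HGI 9 and -0.31 in HGI 10, with the other 15 arrays between -1.24 and 0.16. Its Cy5 signal was well above background in only 1 of HGI 9 and HGI 10. Of the 15 list genes on the array, Pip and Sbp were not among the 13 measured. Neither had Cy5 well above background in HGI 9 or HGI 10.

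**Figure D1:**
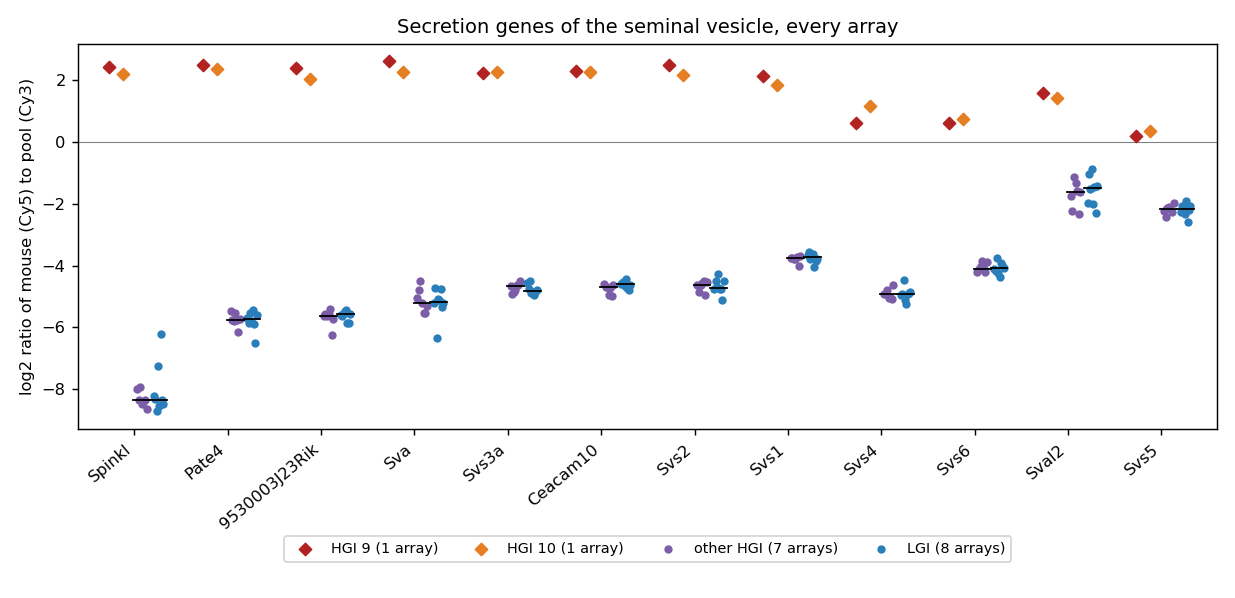
Log2 ratio of each mouse to the pool (vertical axis) for the 12 secretion genes that met the rule, with 1 point per array and a bar at the group median. HGI 9 and HGI 10 lie above 0 for every gene, and the other 7 HGI and the 8 LGI arrays lie below 0 and overlap each other.

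For 3 secretion genes the spots were too bright for the scanner. Svs4 (Svp2 on the array), Svs5 and Svs6, abundant small proteins of the secretion, were saturated in Cy5 in both HGI 9 and HGI 10, and in Cy3 on 15 of the 17 arrays. Svs4 had 0.62 in HGI 9 and 1.16 in HGI 10, against -5.08 to -4.63 in the other HGI mice and -5.23 to -4.46 in LGI mice. Set on Cy5 alone against the mean of the other 15 arrays, Svs4 was at least 20.6-fold higher in HGI 9 and at least 27.2-fold higher in HGI 10. On the same scale Svs6 was at least 12-fold higher in HGI 9 and 15.8-fold in HGI 10, and Svs5 at least 3.56-fold and 4.58-fold. These are lower bounds, so the smaller ratios of the 3 genes do not rank them below Svs2. Ceacam10 and Pate4 were saturated in Cy5 on 1 of the 2 arrays.

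Some of the secretion genes are neighbours in the genome. On chromosome 2, Wfdc15a, Wfdc15b, Svs2, Svs4, Svs3a, Svs6 and Svs5 form a run of 7 of the 393 genes, each within 3 genes of the next in the order of RefSeq genes on GRCm38.p6. Sval2 and Sva lie within 3 genes of each other on chromosome 6, and Svs1, elsewhere on that chromosome, has only Igf2bp3 of the 393 within 3 genes. Ceacam10, Pate4, Spinkl and 9530003J23Rik are in no such run. The transcription factor genes Ehf and Elf5 are adjacent on chromosome 2. Over the 393 genes the share of neighbours was near the background: 9.97% of the 301 that could be placed had another within 3 genes, against 8.26% of the other measured genes.

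The upstream stretches of the secretion genes are shown because the gland depends on androgens. The rule itself chose these genes as high in the same arrays. Whether they vary together apart from that, or share control by androgens, was not tested. Each is the 250 bases before the annotated start, from RefSeq on GRCm38.p6, read 5′ to 3′ on the gene's strand: Svs3a at chr2:164289017-164289266 (plus strand), Svs4 at chr2:164278308-164278557 (minus strand), Svs5 at chr2:164332515-164332764 (plus strand), Svs6 at chr2:164316501-164316750 (plus strand), Ceacam10 at chr7:24776917-24777166 (plus strand) and Sva at chr6:42038144-42038393 (plus strand). Capitals mark AGAACA or its reverse TGTTCT on either strand, the half-site of steroid hormone response elements, and TATAAA, the TATA box, on the gene's strand within the last 50 bases. In Ceacam10 the half-site and its reverse abut, and in Svs3a the half-site abuts the TATA box.
Svs3a: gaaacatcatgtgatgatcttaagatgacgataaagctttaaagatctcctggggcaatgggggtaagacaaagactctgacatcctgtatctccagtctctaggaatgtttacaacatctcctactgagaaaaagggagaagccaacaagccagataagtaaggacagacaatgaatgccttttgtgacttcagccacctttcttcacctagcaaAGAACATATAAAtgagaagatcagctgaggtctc
Svs4: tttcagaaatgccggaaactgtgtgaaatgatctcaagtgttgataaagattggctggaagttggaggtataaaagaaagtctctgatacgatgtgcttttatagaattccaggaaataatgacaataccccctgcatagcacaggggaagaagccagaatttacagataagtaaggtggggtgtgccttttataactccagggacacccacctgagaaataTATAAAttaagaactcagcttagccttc
Svs5: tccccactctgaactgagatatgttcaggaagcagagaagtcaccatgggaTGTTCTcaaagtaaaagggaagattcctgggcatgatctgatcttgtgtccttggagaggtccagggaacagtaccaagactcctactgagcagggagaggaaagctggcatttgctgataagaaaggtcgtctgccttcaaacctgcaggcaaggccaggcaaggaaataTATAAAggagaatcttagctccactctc
Svs6: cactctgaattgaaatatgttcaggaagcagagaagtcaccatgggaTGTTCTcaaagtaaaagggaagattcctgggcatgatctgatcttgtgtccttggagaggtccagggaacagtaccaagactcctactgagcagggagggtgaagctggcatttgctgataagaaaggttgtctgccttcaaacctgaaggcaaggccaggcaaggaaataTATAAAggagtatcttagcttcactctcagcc
Ceacam10: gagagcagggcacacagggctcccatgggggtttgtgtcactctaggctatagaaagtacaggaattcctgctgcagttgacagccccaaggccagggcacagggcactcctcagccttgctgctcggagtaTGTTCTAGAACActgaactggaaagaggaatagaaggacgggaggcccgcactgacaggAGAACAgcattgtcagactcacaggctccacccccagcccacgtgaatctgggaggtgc
Sva: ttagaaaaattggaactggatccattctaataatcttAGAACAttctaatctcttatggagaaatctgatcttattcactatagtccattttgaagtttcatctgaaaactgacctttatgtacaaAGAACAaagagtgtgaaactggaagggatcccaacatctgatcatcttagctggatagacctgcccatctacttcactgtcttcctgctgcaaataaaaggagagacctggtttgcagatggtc

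Ceacam10 and Svs3a each have a pair of stretches that overlap almost wholly, so the 12 stretches of 10 secretion genes are not independent. The half-site stood in 7 of the 10 genes (9 of the 12 stretches), against 15.9% of the 302 stretches of all 393 genes that have one and 16.1% of 32851 stretches in the table. The TATA box stood in 4 of the 10 genes (5 of the 12 stretches), against 4.64% of the 302 and 2.63% of all. Svs4 held a TATA box and no half-site, and Svs2 and 9530003J23Rik held neither. The stretches printed above all hold a marked motif. Those of Svs2, 9530003J23Rik, Sval2 and Svs1 are not printed, of which Sval2 and Svs1 held a half-site. The upstream stretches of Svs5 and Svs6 were identical at 237 of 246 bases aligned without gaps (96.3%), against at most 46.2% in any other pair of Svs2 to Svs6. AGATAA (reverse TTATCT), the GATA motif, was in 3 of the 10 secretion genes (4 of the 12 stretches), in 10.9% of the 302 and in 9.99% of all. GGAAGT (reverse ACTTCC), an ETS motif, was in 4 of the 10 secretion genes (4 of the 12 stretches), in 13.9% of the 302 and in 19.7% of all. The grainyhead motif AACCGGTT was in 0 of the 302 and in 0.116% of all. A match is a description of these letters, not of binding.

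Protease inhibitors gave 6 of 90 measured genes (6.67%, against 2.11% of all genes): Spinkl, Spink8, Wfdc15b, Wfdc15a, Serpinb7 and Serpine2. Spink8, a secreted Kazal-type inhibitor, was at -0.02 in HGI 9 and -0.55 in HGI 10, against -5.23 to -4.62 in the other HGI mice and -5.45 to -4.39 in LGI mice. Unlike the markers it lay at or below the level of the pool in HGI 9 and HGI 10. As the rule fixes, no other array overlapped with them. Wfdc15b, a whey acidic protein-type inhibitor, had 1.39 in HGI 9 and 1.20 in HGI 10, against -4.20 to -2.85 in the other HGI mice and -4.16 to -2.02 in LGI mice. Wfdc15a had 1.42 in HGI 9 and 1.16 in HGI 10, against -3.96 to -2.07 in the other HGI mice and -2.66 to -1.50 in LGI mice. The rule fixes that both genes of this chromosome 2 pair lay apart from all 15. Serpine2, protease nexin 1, which blocks thrombin and plasminogen activators, had 1.77 in HGI 9 and 1.61 in HGI 10, against -1.62 to -0.83 in the other HGI mice and -1.88 to -1.04 in LGI mice. Serpinb7 differed from the median of the 15 by 3.44 in HGI 9 and 3.47 in HGI 10. The class as a whole lay close to all genes: its median difference from the 15 was 0.04 in HGI 9 and 0.06 in HGI 10, against -0.04 and -0.02 over all genes. Of 173 measured proteases only Tmprss13, a membrane serine protease, met the rule (0.578%), at 1.20 in HGI 9 and 1.42 in HGI 10, against -1.60 to -0.21 in the other HGI mice and -1.40 to -0.72 in LGI mice.

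Ion transport gave 11 of 278 measured genes (3.96%, against 2.11% of all genes). Slc9a2, a sodium-proton exchanger of epithelia, was at 2.32 in HGI 9 and 2.09 in HGI 10, against -5.00 to -3.06 in the other HGI mice and -5.19 to -2.42 in LGI mice. Trpv6, the calcium channel of absorbing epithelia, was at 1.76 in HGI 9 and 1.48 in HGI 10, against -3.53 to -1.42 in the other HGI mice and -3.32 to -1.89 in LGI mice. Aqp8, a water channel, had 1.63 in HGI 9 and 1.56 in HGI 10, against -1.05 to -0.28 in the other HGI mice and -1.66 to -0.22 in LGI mice. As the rule fixes, no array of either diet reached HGI 9 or HGI 10 in these 3 genes. Trpc1, a cation channel, had a margin of 2.18, Slc41a2, a magnesium transporter, 1.66, and Slc4a8, which exchanges bicarbonate with sodium and chloride, 1.40. A further probe of Trpc1 went the other way, with HGI 9 at -0.66 and HGI 10 at 0.15 and another array at 1.09. The remaining members were Atp12a, the proton-potassium pump of epithelia outside the stomach, Car11, Kcnk1, a potassium channel, Slc24a2 (6330417K15Rik on the array) and Fxyd4, a regulator of the sodium pump, with margins of 1.05 to 1.33. The class median differed from the 15 by -0.02 in HGI 9 and 0.07 in HGI 10, which is close to the medians over all genes.

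Other solute carriers gave 10 of 236 measured genes (4.24%, against 2.11% of all genes). Slco4c1, an organic anion transporter, was at 2.27 in HGI 9 and 2.00 in HGI 10. Its Cy5 signal was not well above background on any of the other 15 arrays, so it was at least 22.7-fold higher in HGI 9 and at least 19.0-fold higher in HGI 10. Slco1a5, of the same family, had 2.09 in HGI 9 and 1.85 in HGI 10, against -2.89 to -1.39 in the other HGI mice and -2.22 to -1.34 in LGI mice, and its further probe had a margin of 3.43. Slc23a3 had a margin of 2.46, Slc7a1, a carrier of cationic amino acids, 1.53, Slc44a4, a choline transporter-like protein, 1.45, and Slc45a1 1.22. The class median differed from the 15 by -0.07 in HGI 9 and -0.06 in HGI 10.

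Epithelial genes were higher in HGI 9 and HGI 10 far more widely than the rule shows. Only 9 of 69 measured genes met it (13.0%, against 2.11% of all genes). But 48 of 69 (69.6%) were at least 0.5 above the median of the 15 in both arrays, against 12.3% of all genes. The median difference was 1.68 in HGI 9 and 1.72 in HGI 10. Elf5, a transcription factor of glandular epithelia, was at 2.47 in HGI 9 and 2.28 in HGI 10 and not well above background in Cy5 on any other array, so it was at least 85.0-fold higher in HGI 9 and at least 83.4-fold in HGI 10. Cldn8, a claudin of tight junctions, was likewise at least 26.1-fold higher in HGI 9 and at least 20.3-fold in HGI 10. Grhl2, a grainyhead factor that maintains epithelial junctions, was at 1.73 in HGI 9 and 1.50 in HGI 10, against -4.19 to -2.53 in the other HGI mice and -4.11 to -2.08 in LGI mice. Trp63 and Krt5, a transcription factor and a keratin of basal epithelial cells, had margins of 1.22 and 1.19. Cldn3 had a margin of 1.71, Ehf, a close relative of Elf5, 1.51, Perp, a desmosome protein, 1.10, and Rab25, a vesicle GTPase of epithelia, 1.01. Ehf had further probes on both sides: 1 had a margin of 0.87 and another -1.16.

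The array LGI 9 stood apart from the other 14 in this class. The median of the 69 epithelial genes was 0.63 in HGI 9 and 0.44 in HGI 10, against 0.30 in LGI 9 and at most -0.72 in the other 14 arrays. LGI 9 was the highest of the 15 for 43 of the 69 genes. Cdh1, E-cadherin, was at 1.13 in HGI 9 and 1.02 in HGI 10, against 0.84 in LGI 9, the highest of the LGI mice (median -4.58), and at most -1.79 in the other HGI mice. Krt18, a keratin of simple epithelia, was at 1.52 in HGI 9 and 1.05 in HGI 10, against 0.21 in LGI 9 and at most -1.90 in the other HGI mice. The other bright genes of the list overlapped with LGI mice: F11r, a junction protein, was at 0.17 in HGI 9 and 0.13 in HGI 10, against at most 0.23 in LGI mice, and Lsr, of tricellular junctions, at 0.69 in HGI 9 and 0.43 in HGI 10, against at most 0.47 in LGI mice. The secretion genes did not share this: their median in LGI 9 was -4.62, within the range of the other arrays. Without LGI 9, 24 of the 69 epithelial genes met the rule in place of 9, and 457 genes in all in place of 393, while the secretion list kept 12 of 13. The motile cilia list was also highest in LGI 9 among the 15, with a median of 1.11, against -0.20 in HGI 9 and -0.08 in HGI 10. Of its 13 genes 1, Mns1, met the rule (7.69%, against 2.11% of all genes). Samples were scanned in 1 session with 1 array per slide, LGI 9 at position 1, HGI 9 at position 2 and HGI 10 at position 17. The part of scan order in these values was not tested.

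**Figure D2:**
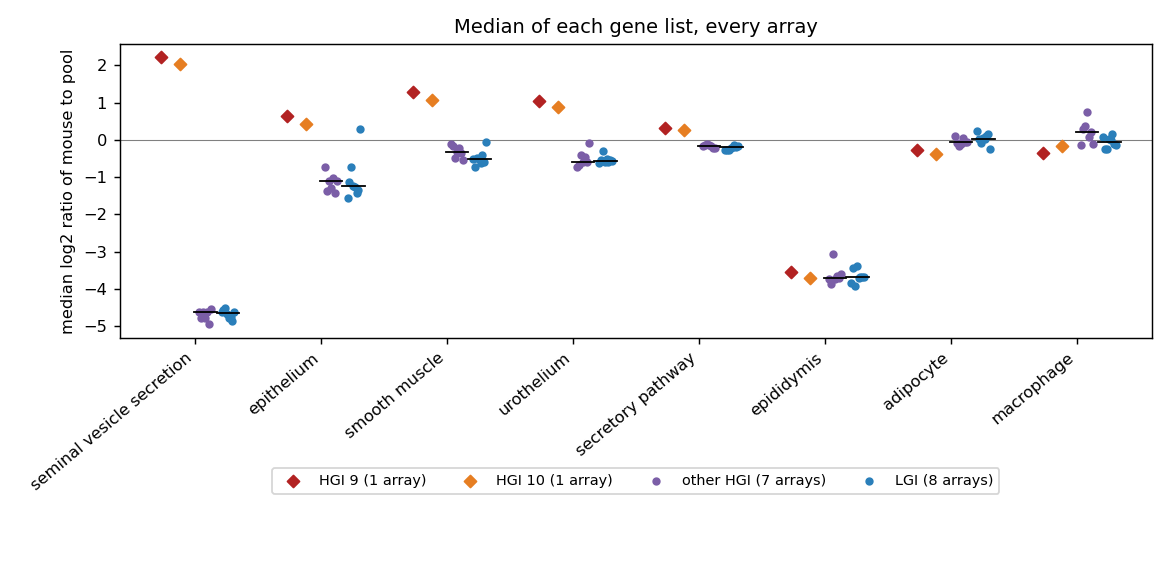
Median log2 ratio of each gene list to the pool (vertical axis), with 1 point per array and a bar at the group median. HGI 9 and HGI 10 are highest for secretion, epithelium, smooth muscle, urothelium and the secretory pathway, LGI 9 is the single LGI point at 0.30 for epithelium, and the epididymis, adipocyte and macrophage lists do not place HGI 9 and HGI 10 above the rest.

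Smooth muscle genes were high in the same 2 arrays as the secretion genes. Of 16 measured, 6 met the rule (37.5%, against 2.11% of all genes). In both HGI 9 and HGI 10, 12 (75%) were higher than in all other arrays, against 11.7% of all genes. The list median was 1.28 in HGI 9 and 1.08 in HGI 10, against -0.73 to -0.06 in the other 15. Cnn1, calponin, was at 2.77 in HGI 9 and 2.46 in HGI 10, against -3.56 to -1.93 in the other HGI mice and -4.22 to -1.71 in LGI mice. Des, the intermediate filament desmin, was at 1.56 in HGI 9 and 1.94 in HGI 10, against -2.15 to -1.21 in the other HGI mice and -2.81 to -1.20 in LGI mice. Tagln, an actin-binding protein of smooth muscle, had a margin of 2.41 and a further probe with a margin of 2.13. Pcp4, a calmodulin regulator, had a margin of 3.65, Myh11, the smooth muscle myosin heavy chain, 1.82, and Lmod1, which nucleates actin, 1.14. Acta2 and Actg2, the smooth muscle actins, were above all other arrays by 0.60 and 0.11 and did not meet the rule. For Acta2 the size depended on the probe. Its probes well above background on every array differed in their distance from the median of the 15. The largest difference was 3.06 in HGI 9 and 2.72 in HGI 10, and the smallest 0.34 and 0.28. The part of smooth muscle in the values of the other genes was not tested.

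The secretory pathway was higher as a class by small amounts. Only 5 of 96 measured genes met the rule (5.21%, against 2.11% of all genes). But 50 of 96 (52.1%) were higher in HGI 9 and in HGI 10 than in all other 15 arrays, against 11.7% of all genes. The list median was 0.33 in HGI 9 and 0.27 in HGI 10, against -0.28 to -0.11 in the other 15. Sec11c, a subunit of the signal peptidase, was at 1.31 in HGI 9 and 1.23 in HGI 10, against -1.26 to -0.75 in the other HGI mice and -1.42 to -0.70 in LGI mice. Dnajc10, a reductase of disulfide bonds in the endoplasmic reticulum, had a margin of 1.31 and further probes with margins of 1.09, 0.79 and -0.13. Margins were 1.21 for Ssr4, a subunit of the translocon-associated complex, 1.15 for Sdf2l1, of the same compartment, and 1.14 for Bhlha15 (Bhlhb8 on the array), a transcription factor of secretory cells. A further probe of Bhlha15 had a margin of 4.75 and 1 of Ssr4 a margin of 1.17. Of 25 androgen-responsive genes 1 met the rule (4%, against 2.11% of all genes). In both HGI 9 and HGI 10, 7 of the 25 (28%) lay above all 15 arrays, against 11.7% of all genes. Over the 25 the median difference from the 15 was 0.11 in HGI 9 and -0.06 in HGI 10. Over all genes it was -0.04 and -0.02. The 1 that met the rule was Fkbp11, a folding enzyme of the endoplasmic reticulum, with a margin of 2.08. A further probe of Fkbp11 had HGI 9 at 1.05 and HGI 10 at 0.55 and another array at 2.54. Of 104 glycosylation genes 4 met the rule (3.85%, against 2.11% of all genes): B3galt6, with a margin of 3.13, B3gntl1, with 1.55, the mucin Muc4, with 1.06, and Galnt13, with 1.03. A further probe of B3gntl1 was at -0.15 in HGI 9 and -0.58 in HGI 10, with another array at 1.66, and 1 of Muc4 had a margin of -0.20. Over the 104 glycosylation genes the median difference from the 15 was -0.08 in HGI 9 and -0.02 in HGI 10.

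**Figure D3:**
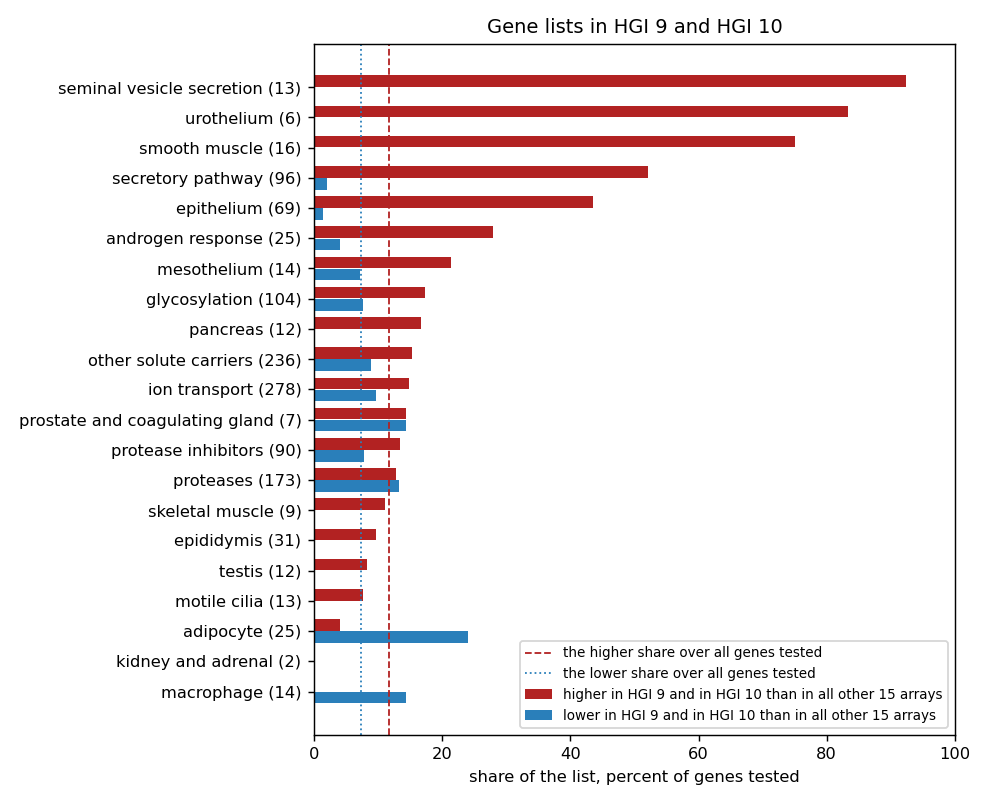
Share of each gene list, in percent of its measured genes (number in parentheses), that lay above all other 15 arrays in both HGI 9 and HGI 10, or below them in both, with lines at the shares over all genes (11.7% and 7.38%). Secretion, urothelium, smooth muscle, secretory pathway and epithelium have the longest upper bars.

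The lists for other tissues differed. Of 6 measured urothelial genes, Krt5 and Trp63, which other epithelia share, met the rule (33.3%, against 2.11% of all genes). In HGI 9 and HGI 10 alike, 5 (83.3%) were above all other arrays, against 11.7% of all genes. All 6 were at least 0.5 above the median of the 15 in both, against 12.3% of all genes. The brightest uroplakins, proteins of the bladder lining, were among the 6. Upk1a was at 1.07 in HGI 9 and 1.24 in HGI 10, against -0.14 to 0.42 in the other HGI mice and -0.28 to 0.27 in LGI mice. Upk1b was at 1.01 in HGI 9 and 0.52 in HGI 10, against -1.08 to -0.16 in the other HGI mice and -0.86 to -0.08 in LGI mice. On these probes no other array overlapped with HGI 9 or HGI 10 in either gene. For Upk1a this depends on the probe: a further probe, well above background on every array, differed from the median of the 15 by -0.48 in HGI 9 and 0.05 in HGI 10. The part of urothelium in the values of the other genes was not tested. Upk3a, a further uroplakin, was at 1.60 in HGI 9 and 1.47 in HGI 10 and at most 0.57 in the other 15. Of 31 epididymal genes only Cd52, a surface glycoprotein also made by lymphocytes, met the rule (3.23%, against 2.11% of all genes). Ly6g5c, also on this list, lay just outside it with a margin of 0.995. At least 0.5 above the median of the 15 in both were 5 of the 31 (16.1%), against 12.3% of all genes. Cd52 was at 2.10 in HGI 9 and 1.83 in HGI 10, against -2.75 to -1.96 in the other HGI mice and -3.21 to -2.25 in LGI mice. The epididymis list was at -3.55 in HGI 9 and -3.70 in HGI 10, within -3.93 to -3.05 in the others. None of the 7 prostate, 12 testis, 12 pancreas, 9 skeletal muscle, 14 mesothelial, 14 macrophage and 2 kidney or adrenal genes measured met it. The brightest genes of these lists and of motile cilia lay at or below the highest of the other 15 arrays in HGI 9 or HGI 10 (epididymal Lcn5 and Defb20, prostatic Fgl1, Gucy2c and Mme, testicular Tssk6, Pgk2 and Odf2, pancreatic Ctrb1, Amy2a5 and Cel, renal Umod and adrenal Hsd3b1, skeletal Myl1 and Ryr1, mesothelial Msln and Nkain4, ciliary Tppp3, Tekt4 and Dynlrb2, and Lyz2, Lyz1 and Cd163 of macrophages). Exceptions were Acta1, the skeletal muscle actin, with a margin of 0.71, and Krt18, which is also on the epithelial list. Of 13 prostate and coagulating gland genes on the array, 8 were not well above background in Cy5 in HGI 9 or HGI 10, among them the defining genes Pbsn, Msmb and Tgm4. Of the 7 measured, 1 lay above all 15: Spdef, a transcription factor also on the epithelial list, was 2.92 in HGI 9 and 3.75 in HGI 10 above the median of the 15, with Cy5 well above background in both.

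The fat's own genes were present in every array and on balance somewhat lower in HGI 9 and HGI 10. All 25 adipocyte genes were well above background in both arrays, and their median difference from the other 15 was -0.37 in HGI 9 and -0.38 in HGI 10. LGI 9 was nearly as low: the list median was -0.27 in HGI 9, -0.39 in HGI 10 and -0.25 in LGI 9, against -0.16 to 0.25 in the remaining arrays. Of the 25, 6 (24%) were lower in both than in all other arrays, against 7.38% of all genes, and 1 was higher. This was not particular to adipocyte genes. The macrophage list had a median difference from the other 15 of -0.42 in HGI 9 and -0.28 in HGI 10. Of its 14 genes, 2 (14.3%) were lower in both than in all other arrays. Car3, an abundant carbonic anhydrase of adipocytes, was at -0.51 in HGI 9 and -0.76 in HGI 10, against -0.41 to 0.07 in the other HGI mice and -0.24 to 0.40 in LGI mice. Lpl, lipoprotein lipase, was at -0.27 in HGI 9 and -0.16 in HGI 10, against at least 0.24 in the other HGI mice and at least -0.06 in LGI mice. Fabp4, the adipocyte fatty acid-binding protein, went the other way, at 0.02 in HGI 9 and 0.05 in HGI 10, against -0.50 to -0.24 in the other HGI mice and -0.43 to -0.03 in LGI mice. That direction depends on the probe: a further probe of Fabp4 differed from the median of the 15 by -0.26 in HGI 9 and -0.14 in HGI 10. Cfd, the adipocyte serine protease adipsin, was at -0.13 in HGI 9 and -0.42 in HGI 10, against -0.84 to -0.21 in the other HGI mice and -0.43 to 0.21 in LGI mice, so the groups overlapped. The rule turned round, at least 1 lower in both arrays than in the lowest of the other 15, found 7 genes (0.0376%): Ankrd44, Cyp2f2, Ikzf1, Zfp39, A930037G23Rik, 2700086A05Rik and AK079806. None of the 7 was well above background in Cy5 in HGI 9 or HGI 10.

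The choice of genes fixes that HGI 9 and HGI 10 are both high. Over all 393 genes the medians were 1.63 in HGI 9 and 1.52 in HGI 10, against -1.13 to -0.85 in the other 15 arrays. HGI 9 was the higher of the pair for 280 genes, by a median of 0.139 over all 393, and 345 genes differed by less than 0.5 between the pair. Over the 18202 genes not chosen, the correlation of HGI 9 with HGI 10 was 0.644, with all ratios set against 1 pool. The Cy5 signal was well above background in both for 392 of the genes. On the other 15 arrays it was so on all for 223 genes, on some for 146 and on none for 24. For 23 of those 24 a lower bound could be set, between 2.50- and 85.0-fold in HGI 9 and between 2.77- and 83.4-fold in HGI 10. A margin of at least 0.5 was met by 786 genes (4.23% of all measured). The margin was at least 2 for 127 genes (0.683%) and at least 4 for 32, with a median of 1.62 and a maximum of 8.66 for CF584628, an expressed sequence with no gene name.

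**Figure D4:**
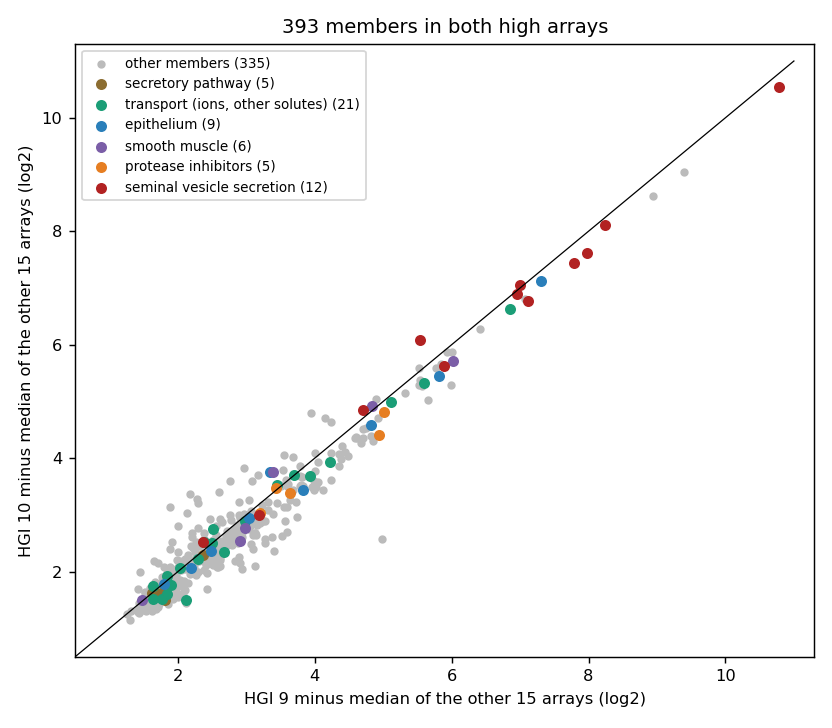
HGI 9 (horizontal axis) and HGI 10 (vertical axis), each minus the median of the other 15 arrays in log2 units, with 1 point for each of the 393 genes, coloured by list, and a line where both are equal. The choice of genes places every point high on both axes. Spinkl, at 10.79 in HGI 9 and 10.53 in HGI 10, was well above background in Cy5 on only 1 of the other 15 arrays, so its position is approximate.

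Other genes with large margins lay outside these lists. Dnase2b, an acid deoxyribonuclease, had a margin of 7.52, Smpx, a small muscle protein, 5.27, and Tspan8, a tetraspanin, 5.11. The following were chosen after their values were seen. Pate14 (A630095E13Rik on the array) and Pate6 (D730048I06Rik), of the same family as Pate4, had margins of 6.51 and 4.10. The transcription factor Gata3 was at 2.29 in HGI 9 and 2.11 in HGI 10, against -3.81 to -2.67 in the other HGI mice and -3.80 to -2.81 in LGI mice. Gata2, a relative, had a margin of 3.26 and a further probe with 2.75. The tetraspanin Tspan1 had a margin of 4.82, and its further probe 7.51. Olfactory, vomeronasal and taste receptors gave 32 of 605 measured genes (5.29%, against 2.11% of all genes), with Olfr1419 at a margin of 4.01. This list was also added after the values were seen. It was higher more widely: 182 of 605 (30.1%) were at least 0.5 above the median of the 15 in both arrays, against 12.3% of all genes. The list median was 0.42 in HGI 9 and 0.44 in HGI 10, against -0.04 to 0.16 in the other 15. The spots of the 32 receptors lay beside very bright spots in 1 of 32 cases, against 2.04% of all 393 genes and 1.25% of other genes. What the receptor spots measure was not tested.

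Further probes of the same genes gave mixed values. Of these, 75 had 91 further probes that passed the same filter, of which 19 (20.9%) had a margin of at least 1 and 34 (37.4%) lay above all 15 arrays, against 0.854% and 6.71% of 7377 further probes of other genes. Of 16 genes with a margin of at least 2 and a further probe, 7 had such a probe with a margin of at least 1, as had 12 of 59 genes with a smaller margin. For 43 of the 75 genes no further probe lay above all 15 arrays, so a single probe carries these. At the threshold itself, Zfp846 (2210010B09Rik), Wasf3 and Nlrp2 lay just inside, each with a margin of 1.00, and 1700105P06Rik, Eml1 and Ly6g5c just outside, at 0.996, 0.995 and 0.995.

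The comparison of the diets asked whether the same genes differ between HGI and LGI once HGI 9 and HGI 10 are set aside. The rule took no account of diet but limited the highest of these 15 arrays, so it used part of these values. Svs2 averaged -4.66 ± 0.17 in the 7 HGI mice and -4.67 ± 0.25 in the 8 LGI mice (SD), which differ by 0.01 ± 0.11 (SE, limma adjusted p = 0.989). Pate4 differed by 0.05 ± 0.14 (limma adjusted p = 0.972) and Ceacam10 by -0.13 ± 0.08 (limma adjusted p = 0.822). In limma, 0 of the 18595 genes passed an adjusted p of 0.05, and the smallest was 0.660 over all genes and 0.791 among the 393. An unadjusted p under 0.05 was reached by 8 of the 393 genes (2.04%), 5 higher and 3 lower in HGI, against 6.27% of all genes, 3.69% higher and 2.58% lower. As the rule limits these arrays, nothing is read from the gap between those shares. The median difference of the 393 genes was 0.01, with 202 higher and 191 lower in HGI and a median SE of 0.181. With adjustment over 18595 genes a difference of several SE need not pass, so differences well above that size may also have gone unseen.

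Among the 393 genes, 4 had the smallest p, and none passed. ENSMUST00000047700, a transcript model with no symbol, differed by -0.70 ± 0.23 (SE), Sdf2l1 by 0.44 ± 0.15, Dnase2b by -0.70 ± 0.27 and Slc41a2 by 0.67 ± 0.28, each at a limma adjusted p of 0.791. Dnase2b was well above background in Cy5 on only 6 of the 15 arrays.

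With HGI 9 and HGI 10 in the HGI group, the same genes read differently. As both arrays are HGI arrays, the rule itself lifts the HGI mean, so these differences are a description and share the other 15 arrays with those above. Svs2 then differed by 1.57 ± 1.03 (SE), Pate4 by 1.86 ± 1.20 and Ceacam10 by 1.43 ± 1.03. Over the 393 genes the median difference was 0.57 with all 17 arrays, with 392 genes higher in HGI, and 248 genes were at least 0.5 higher, as 12 were without the 2 arrays. For the 12 secretion genes it was 1.50 (0.55 to 2.06) with all 17 arrays and 0.01 (-0.30 to 0.10) without the pair.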

How the data were processed

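RNA of epididymal fat was measured on 2-colour Agilent arrays, 1 mouse in Cy5 against a Cy3 pool on each. The deposited scanner files hold processed signal intensities that Agilent Feature Extraction had background-subtracted and dye-normalized, with surrogates for spots not above background, per the file headers. The headers name version 9.1.3.1, and the submitters' processing notes 9.5.1.1. They also hold mean and background intensities and flags of saturation, outliers and spots well above background. A table of log2 values for 19836 probes, also from the authors, has a normalization not given in the sources used here and served as an alternative.

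Of 43790 spots, 2256 controls were left out, spots of 1 probe were averaged, and 26063 of 41174 probes had Cy3 well above background on at least 8 of 17 arrays. The brightest probe stood for a gene. Symbols came from RefSeq (GRCm38.p6): of the 393 genes, accession gave 262, symbol 33 and a synonym 18, and 80 stayed as in the file. In all, 135 of the 393 have clone or model names. The arrays name no genome build, so coordinates are given for RefSeq sequences only. In Cy5, 54.2% to 66.7% of an array's gene spots were well above background. Precision is limited by the number of arrays. Array medians of all genes lay between -0.02 and 0.00.

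Lower bounds use Cy5 after Aquantile normalization and are open to dye bias, as dyes were not swapped. Diets were compared in limma 3.58.1 under R 4.3.3 (lmFit, eBayes, Benjamini-Hochberg over all 18595 genes, threshold 0.05), tested on simulated data. Tables were made in Python 3.11.15 with pandas 2.3.3 and numpy 2.4.6, and plots with matplotlib 3.10.9. The labels say no more of each animal than its number, so the p-values cover the spread among samples, which may be technical. Members and lists were chosen with earlier results of these data known. Named genes are the markers, the secretion members, the 10 largest margins with a gene symbol, the 6 largest margins of each class, every member on another tissue's list and that list's 3 brightest genes, the 3 genes on either side of the threshold and the 4 smallest p. Others named were chosen after their values were seen.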

Additional observations from a re-analysis of the deposited data

Results flagged for a closer look

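For 9 of the 128 groups of arrays examined (the 9 HGI and the 8 LGI arrays for each of 64 named genes), 1 array lay far from its nearest neighbour by Dixon's ratio, where chance gives about 1 in 20 groups. All 9 concern LGI mice. In the HGI groups the choice of genes places HGI 9 and HGI 10 together, far above the rest, so each hides the other from this ratio. They also widen the range against which any other HGI array is judged. The lack of HGI flags was thus largely set in advance, the chance rate does not apply to those groups, and nothing is read from it. LGI 9 was far above the other LGI arrays for 5 genes: Slc9a2 at -2.42 (next -4.36), Wfdc15b (Wfdc15 on the array) at -2.02 (next -3.34), Cldn3 at -0.76 (next -1.77), Slc44a4 at -0.19 (next -1.87) and Perp at 0.19 (next -1.70). These are values of epithelial, transport and inhibitor genes in the array whose epithelial list stood highest among the 15. Krt5 was highest in LGI 4 at -0.30 (next -0.56), and Nlrp2 in LGI 7 at 0.11 (next -0.25). The remaining 2 were low values: Sva at -6.35 in LGI 4 (next -5.33) and Pate4 (Svs7 on the array) at -6.50 in LGI 8 (next -5.90).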

How the results depend on the processing

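The number of genes that met the rule moved most with the margin and the scale: 786 at a margin of 0.5 (4.23%), 127 at a margin of 2 (0.683%), 169 after normexp background correction with loess, and 68 in the authors' deposited values, all 169 and all 68 being among the 393. The authors' table holds 14677 genes, with 339 of the 393, so the values and the genes tested both change there. Other filters, scalings, probe summaries and spot exclusions gave 349 to 439 genes. Taking HGI 9 or HGI 10 alone, or leaving out LGI 9, gave 457 to 523 genes. The 64 named genes kept their direction in both arrays under the 5 alternatives run for them, but their differences were smaller: the median ratio was 0.66 after normexp and loess and 0.44 in the authors' values (63 genes), against 0.99 with Cy5 alone. The cause was not tested. For the diets, limma called 0 genes in all 13 alternatives, with 517 to 1731 genes at an unadjusted p under 0.05. Dnase2b turned to 0.088 in the authors' values and to 1.34 with all 17 arrays, which then hold the 2 high ones. Replicate numbers shared by the diets did not pair the samples (correlations of -0.148 to 0.117 over 6 numbers), and with the replicate block 0 genes were called, as without it. Slide as a random block was not run, as each slide holds 1 array. The comparisons within the first 8 and the later 9 arrays scanned, and the rule without LGI 9, were chosen after seeing the data. Both of these comparisons left out HGI 9, which is in the first group, and HGI 10, which is in the later one.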
